A study of Bos taurus with 10 samples.

Results

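The proteasome is the cell's main protease for proteins tagged with ubiquitin. Its core particle is a barrel of stacked alpha and beta rings with the proteolytic sites inside, and a regulatory particle at either end binds tagged proteins, unfolds them with a ring of ATPases and feeds them into the barrel. In early embryos it takes part in the removal of proteins stored in the egg, and in immune cells interferon induces alternative catalytic beta subunits and the PA28 activator. The genes described here are those whose symbol starts with PSMA, PSMB, PSMC, PSMD, PSME, PSMF or PSMG followed by a digit: 49 of the 28700 genes kept, each on a single line of the deposited table. By role they are 7 alpha and 7 beta subunits of the standard core, 3 immunoproteasome catalytic subunits, 2 tissue-specific core subunits, 6 ATPases and 11 other subunits of the regulatory particle, 3 chaperones of the regulatory particle, 4 activators, 1 inhibitor and 4 chaperones of core assembly. PSMC3IP, a meiotic recombination factor named after its partner PSMC3, also matches the pattern and is not a subunit.

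Polyadenylated RNA was sequenced from bovine embryos that had been injected as zygotes with small interfering RNA, either targeting H1FOO, which encodes an oocyte-specific linker histone (knockdown, KD), or of a control sequence (negative control, NC). Embryos were taken 4 days after insemination at the 8/16-cell stage, with 2 libraries per treatment, and 5.5 days after insemination at the morula stage, with 3 libraries per treatment. The controls were thus injected too, and uninjected embryos were not analysed here. The labels do not say how many embryos went into a library or whether the libraries of a group came from separate cultures, so p-values here reflect no more than how far these libraries spread, which may be technical. Values are FPKM, fragments scaled to transcript length and to the library's mapped fragments, so they can be compared between genes per length, and any change is relative to the rest of that library. In whole embryos, fewer cells of a type and less RNA per cell cannot be told apart.

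H1FOO stood at 50.8 and 10.8 FPKM in the NC and 0.649 and 0.0736 FPKM in the KD 8/16-cell libraries, and at 0.294 to 2.17 FPKM in NC and 0.0610 to 0.251 FPKM in KD morulae. Summed FPKM ran from 345464 to 669836 per library, and 11103 to 11872 genes reached 1 FPKM. The highest sum was that of KD 8/16-cell replicate 1, where the microRNA genes MIR2887-1 and MIR2887-2 took 27.1% of it; they took 8.06% in KD 8/16-cell replicate 2 and 0 elsewhere. POU5F1, a transcription factor of pluripotent embryo cells, was at 97.4 to 673 FPKM in all 10 libraries. Some markers of other cells were present too, and others were at or near 0. Of 18 cumulus and granulosa markers, 11 to 15 reached 1 FPKM in a group, with SERPINE2 at 23.4 to 75.8 FPKM, VIM at 0.346 to 43.3 FPKM and CYP11A1 at 0.149 to 29.2 FPKM, while FSHR was listed at 0 throughout. Of 14 blood and immune markers, 4 or 5 reached 1 FPKM, with HBA at 94.8 to 239 FPKM and CSF1R at 24.3 to 46.1 FPKM. HBB was at 1.59 FPKM in KD 8/16-cell replicate 1 and listed at 0 in every other library. The pan-leukocyte marker PTPRC ranged over 0 to 0.117 FPKM. Of 11 sperm and testis markers (summed 1.05 to 13.8 FPKM), 1 to 3 reached 1 FPKM. TNP1 was at 0 to 10.2 FPKM, while PGK2 and ADAM2 were listed at 0 throughout.

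Proteasome genes were abundant in every library. Together the 49 genes made up 0.609% to 0.963% of a library's summed FPKM, lowest in KD 8/16-cell replicate 1 beside its MIR2887 values and highest in NC morula replicate 1. Of the 49 genes, 41 were at 10 FPKM or more in all 10 libraries and 47 had a mean of at least 1 FPKM. The plot of levels by class shows that the standard core and the regulatory particle lay in the same range, and the immunoproteasome catalytic subunits far below both. The means over libraries of the 14 standard core genes ran from 52.5 to 213 FPKM (median 122), those of the 17 regulatory particle genes from 38.0 to 157 FPKM (median 63.8), and those of the 3 immunoproteasome catalytic genes from 1.22 to 15.4 FPKM.

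**Figure D1:**
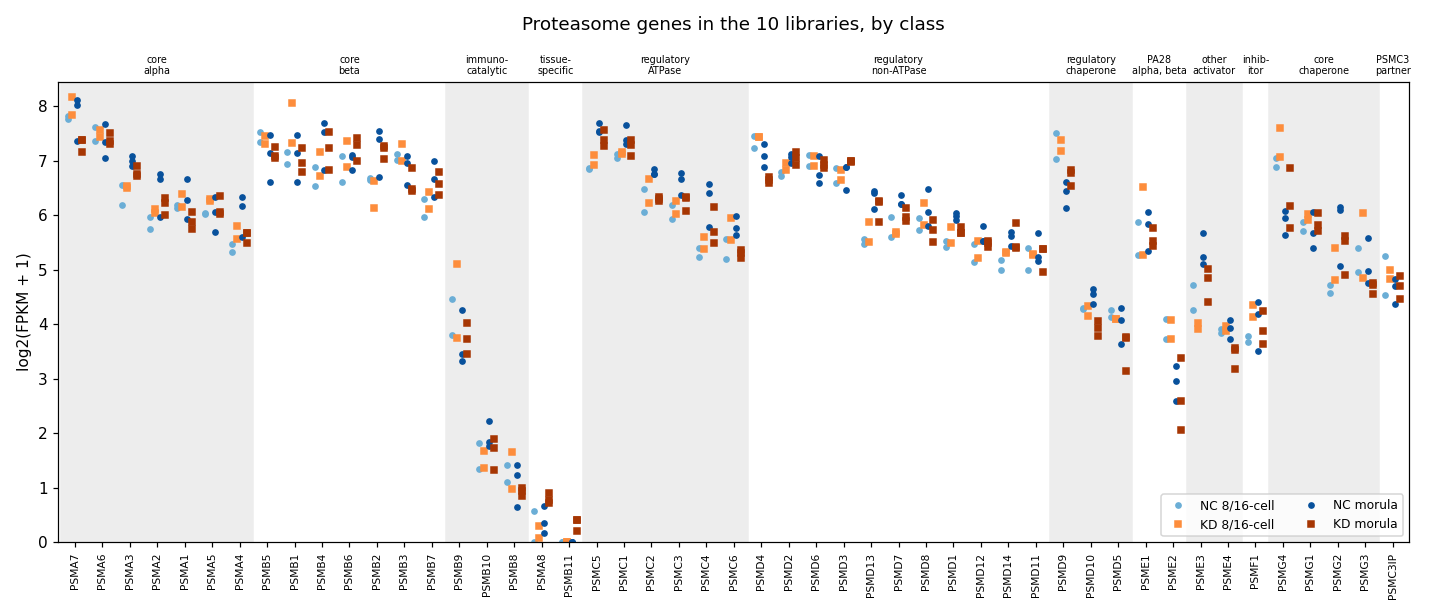
Level of each of the 49 genes in each of the 10 libraries as log2(FPKM + 1), grouped by class and ordered by mean within a class (circles: NC, squares: KD; light: 8/16-cell, dark: morula). The standard core and the regulatory particle share a range, while PSMB8, PSMB10, PSMA8 and PSMB11 lie near the bottom.

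Within the alpha ring PSMA7 had the highest mean of all 49 genes (213 FPKM), at 218 and 225 FPKM in NC against 285 and 228 FPKM in KD 8/16-cell libraries, with 258, 164 and 276 FPKM in NC against 166, 142 and 165 FPKM in KD morulae. The lowest alpha gene was PSMA4, with a mean of 52.5 FPKM and a range of 39.2 to 79.8 FPKM. The ring holds 1 copy of each alpha subunit, and the mean of PSMA7 was 4.05 times that of PSMA4. The beta genes were closer together, from PSMB7 with a mean of 88.6 FPKM to PSMB5 with 151 FPKM, a ratio of 1.70. PSMB5, PSMB6 and PSMB7 carry the chymotrypsin-like, caspase-like and trypsin-like sites. PSMB5 ranged over 96.2 to 184 FPKM, PSMB6 over 97.1 to 169.5 FPKM and PSMB7 over 61.8 to 127 FPKM, so that the ranges of PSMB5 and PSMB6 overlapped widely.

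In the regulatory particle the ATPase PSMC5 had a mean of 157 FPKM and PSMC6, from the same hexameric ring, 46.7 FPKM. PSMC5 was above PSMC6 in each library, and the highest ATPase exceeded the lowest by 2.94 to 4.67 times. Among the non-ATPase subunits PSMD4, a ubiquitin receptor, was the highest (137 FPKM) and PSMD11, a scaffold subunit of the lid, the lowest (38.0 FPKM). PSMD14, the deubiquitinase that strips the tag before a protein enters the core, had a mean of 42.4 FPKM and ranged over 31.0 to 56.9 FPKM. The 3 chaperones that help assemble the regulatory particle differed more: PSMD9 stood at 118 FPKM, PSMD10 (gankyrin) at 18.2 FPKM and PSMD5 at 14.5 FPKM. PSMG4, a chaperone of core assembly, had the highest mean of its class (98.7 FPKM) and its partner PSMG3 the lowest (34.1 FPKM). The other pair of core chaperones, PSMG1 and PSMG2, had means of 56.0 and 40.8 FPKM.

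Over the 10 libraries the median SD of log2(FPKM + 1) was 0.28 for the 44 proteasome genes averaging 10 FPKM or more and 0.36 for all 5669 genes at that level; no test was made of this. PSMD2, the scaffold subunit that binds ubiquitin shuttles, was the steadiest, its highest library being 1.37 times its lowest. The widest ratios were 5.03 for PSME2, 3.95 for PSMG4, 3.85 for PSMB8, 3.69 for PSMB9 and 3.54 for PSME3.

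Of the tissue-specific core subunits, PSMA8, the alpha subunit of male germ cells, was at 0 and 0.487 FPKM in NC against 0.222 and 0.0512 FPKM in KD 8/16-cell libraries, and at 0.277, 0.594 and 0.123 FPKM in NC against 0.642, 0.877 and 0.700 FPKM in KD morulae. The 3 KD morulae were the highest libraries and did not overlap the NC morulae, but all values were under 1 FPKM. PSMB11, the beta subunit of thymic epithelium, was listed at 0 in the 4 8/16-cell libraries and the 3 NC morulae while the KD morulae had 0.156, 0.326 and 0.319 FPKM. In the RefSeq annotation (ARS-UCD2.0, used for gene order only) PSMB11 is the next gene to PSMB5, and whether the libraries keep strand is not stated. PSMB5 was at 96.2 to 184 FPKM in the libraries with PSMB11 at 0 and at 132 to 152 FPKM in KD morulae. A part of PSMB5 reads in the PSMB11 values was not tested. Neither PSMA8 nor PSMB11 reached the mean of 1 FPKM required for testing.

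At the 8/16-cell stage no proteasome gene passed the test between KD and NC embryos. The knockdown target H1FOO did not pass either, here (log2 difference -4.22) or in morulae, so this test can miss a large difference. None of the 47 genes tested passed in limma (0 at an unadjusted p under 0.05, beside 4.37% of all genes; every Benjamini-Hochberg adjusted p over all 11761 genes was 1), where 0.017% of all genes passed, namely the MIR2887 pair. As deposited, 38 of the 47 log2 differences were positive (52.1% of all genes) with a median of 0.14, beside 0.01 over all genes. This side was not kept under another scaling: with libraries scaled to equal sums 3 were positive and 44 negative (median -0.25), while the median of all genes moved to -0.35. Without KD 8/16-cell replicate 1, 26 were positive and 21 negative (median 0.04).

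Among the core genes PSMB1, a non-catalytic beta subunit, had the largest positive difference. It stood at 141 and 121 FPKM in NC against 265 and 159 FPKM in KD (log2 difference 0.65, SE 0.31, 95% interval -0.04 to 1.34, n = 2 per group, limma adjusted p 1). Both KD libraries were above both NC libraries, but KD replicate 2 lay closer to NC than to KD replicate 1. PSMF1, an inhibitor of the core particle, stood at 11.8 and 12.8 FPKM in NC against 16.5 and 19.4 FPKM in KD (0.51, SE 0.30), and the core chaperone PSMG2 at 25.2 and 22.7 FPKM against 41.4 and 27.2 FPKM (0.47, SE 0.37). On the other side, PSME3, the nuclear PA28 gamma activator, stood at 25.3 and 18.3 FPKM in NC against 15.2 and 14.1 FPKM in KD (-0.53, SE 0.26), followed by PSMB2 (-0.29) and PSMD5 (-0.11). The treatments were apart without overlap for 12 members higher in KD and 3 lower, beside 19.3% and 13.9% of all genes. The summed FPKM of 18 cumulus and granulosa markers was 98.3 to 103 in NC and 164 to 167 in KD libraries of this stage, and its part in these values was not tested.

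In morulae all 6 ATPase genes and all the activator genes, PSME1 to PSME4, had negative differences between KD and NC embryos. No member passed in the fit without the replicate number. In limma 0 of 47 passed (7 at an unadjusted p under 0.05, beside 21.2% of all genes), where 0.697% of all genes passed; the smallest adjusted p was 0.0724, for PSMD10. Of the 47 log2 differences 36 were negative (57.9% of all genes), with a median of -0.19 beside -0.08 over all genes, and 26 of them, the 6 ATPases, PSME3 and PSME4 included, stayed negative in all 19 alternatives run. Under quantile normalization 28 were negative and 19 positive (median -0.06). Same-numbered KD and NC morula libraries deviated together. In limma with the number as a block, 5 of 47 members passed, all lower in KD: PSMA7, PSMC2, PSMC6, PSMD10 and PSME3 (adjusted p 0.0486, 0.032, 0.0442, 0.0416 and 0.0364). That fit called 8% of all genes lower and 3.89% higher, 11.9% in all, so the count does not set proteasome genes apart.

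PSMD10 had the largest negative difference. It stood at 22.4, 19.7 and 24.1 FPKM in NC against 14.3, 15.7 and 12.8 FPKM in KD morulae, so that all 3 KD libraries were below all 3 NC libraries (log2 difference -0.60, SE 0.15, n = 3 per group, limma adjusted p 0.0724, blocked 0.0416). PSME3 and PSME4 lay below NC without overlap as well. PSME3 was at 49.8, 36.8 and 33.2 FPKM in NC against 31.4, 27.8 and 20.2 FPKM in KD (difference -0.58, SE 0.22, adjusted p 0.166, blocked 0.0364). PSME4 (PA200), an activator that works without ubiquitin, was at 14.2, 15.9 and 12.2 FPKM in NC against 10.9, 10.5 and 8.07 FPKM in KD (difference -0.49, SE 0.17, adjusted p 0.141, blocked 0.0611), and did not pass in either fit.

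All 6 ATPase genes had negative differences in morulae (median -0.42), and for PSMC2, PSMC3 and PSMC6 the groups did not overlap. PSMC6 stood at 48.9, 53.3 and 62.1 FPKM in NC against 40.1, 35.9 and 38.4 FPKM in KD (difference -0.51, SE 0.17, adjusted p 0.137, blocked 0.0442). PSMC2 stood at 107, 107 and 114 FPKM against 77.7, 75.4 and 79.4 FPKM (-0.49, SE 0.17, adjusted p 0.139, blocked 0.032), the 3 KD libraries lying close together. The smallest difference in the ring was that of PSMC1 and PSMC5 (-0.19 each). Of the 11 non-ATPase subunits 9 had a negative difference (median -0.14). PSMD4 was at 135, 157 and 117 FPKM in NC against 103, 98.9 and 95.9 FPKM in KD (difference -0.45, SE 0.16, adjusted p 0.143, blocked 0.056), again without overlap, while PSMD14 (-0.03) and PSMD11 (-0.12) lay near 0.

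In the core particle the alpha genes had a median of -0.28, with 5 of 7 negative, and the beta genes a median of -0.07, with 5 of 7 negative. PSMA7 had the largest difference of the core (-0.53, SE 0.21, adjusted p 0.192, blocked 0.0486). Its KD libraries were close together, but NC replicate 2, at 164 FPKM, lay among them, so the groups overlapped. None of the 14 core genes separated the groups. The largest positive differences of all members were those of PSMG4 (0.38), PSMD9 (0.32) and PSMD3 (0.25). The chaperones PSMG1, PSMG2 and PSMG3 (0.14, -0.42 and -0.43) and the inhibitor PSMF1 (-0.11) did not pass. PSMD3, a lid subunit, was the 1 member whose KD values all lay above NC, 126, 126 and 126 FPKM against 116, 86.9 and 117 FPKM (adjusted p 0.405). In all, 10 members were lower and 1 higher without overlap, beside 15.3% and 8.44% of all genes. The ribosomal RNA gene RN18S1 was at 2704 to 8611 FPKM in NC and 8553 to 11581 FPKM in KD morulae. The summed cumulus and granulosa markers were at 75.1 to 87.0 FPKM in NC and 66.3 to 138 FPKM in KD morulae. Of the 12 of these markers tested, 9 had positive and 3 negative differences (median 0.62, all genes -0.08). SERPINE2 lay lower in KD, at 45.9, 23.4 and 35.0 FPKM against 75.8, 50.1 and 45.0 FPKM in NC. The part of RN18S1 and of these markers in the differences was not tested.

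**Figure D2:**
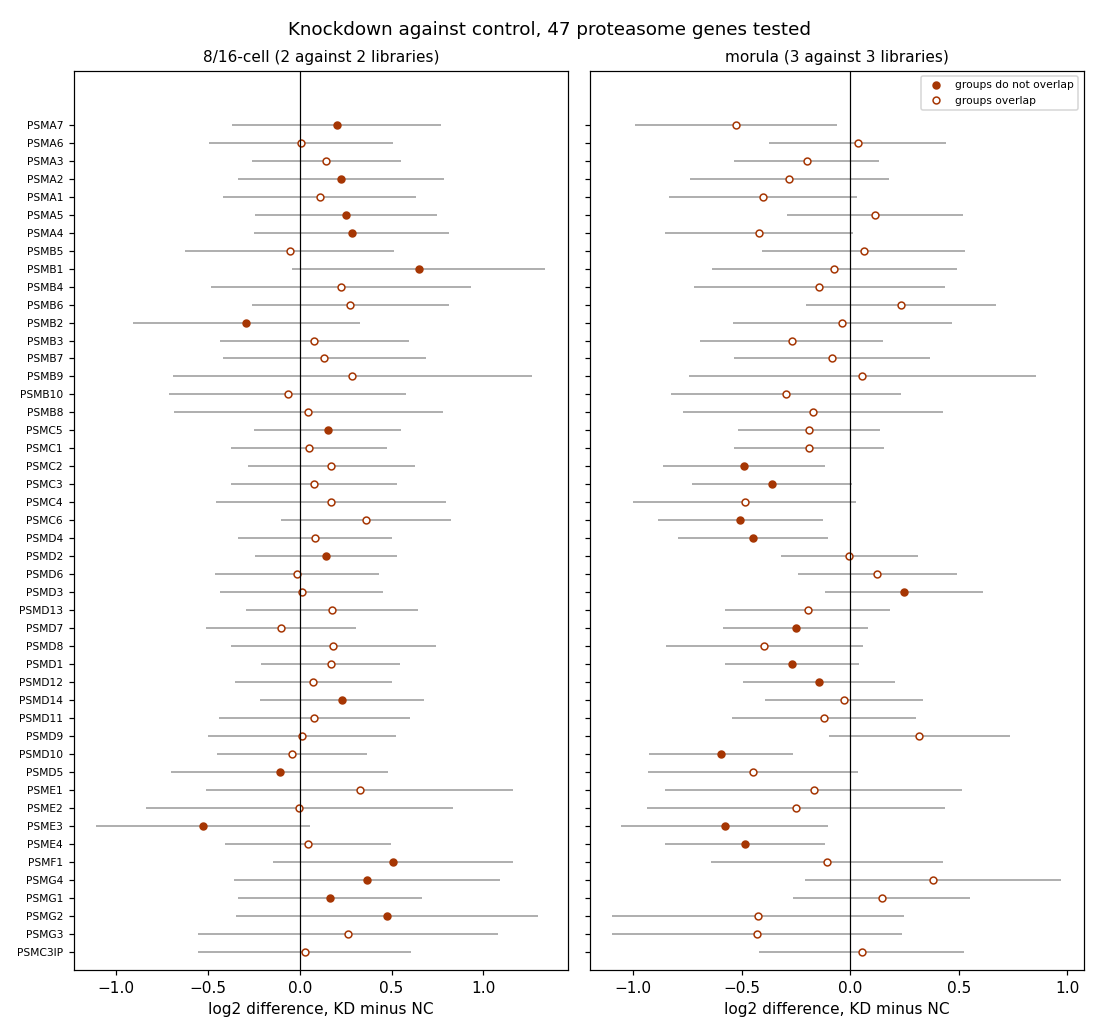
Log2 difference (KD minus NC, on the log2(FPKM + 1) scale) of the 47 genes tested at the 8/16-cell stage (left, 2 against 2 libraries) and the morula stage (right, 3 against 3). Bars are unadjusted 95% limma intervals and filled points mark groups that do not overlap: 15 at the 8/16-cell stage, mostly positive, and 11 in morulae, mostly negative.

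The change of side between the stages was not shown by the test of the difference itself. In limma 0 of 47 members passed for the interaction of treatment and stage (4 at an unadjusted p under 0.05, beside 9.39% of all genes; smallest adjusted p 0.479), where 0.017% of all genes passed. The interaction was negative for 39 of 47 members (58.5% of all genes), with a median of -0.34 beside -0.10 over all genes. With libraries scaled to equal sums 16 were negative and 31 positive (median 0.10, all genes 0.32). With the MIR2887 genes removed before that scaling, a step chosen after seeing the data, 33 were negative and 14 positive (median -0.18, all genes 0.06).

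Between the 8/16-cell and morula stages of NC embryos, 2 ATPase, 2 other regulatory and 2 alpha subunit genes rose, together with PSME3 and PSMG2, while PSMG4 and PSMD9 fell. Of the 47 members 8 rose and 2 fell (limma), where 12.6% of all genes rose and 18.2% fell. At an unadjusted p under 0.05 there were 17, beside 43.7% of all genes. So 10 of 47 passed where 30.8% of all genes did, and the number of calls does not set proteasome genes apart. The median log2 difference was 0.24, with 33 of 47 positive (45.6% of all genes), beside a median of -0.07 over all genes. The cumulus and granulosa sums of NC embryos were 98.3 to 103 FPKM and then 75.1 to 87.0 FPKM. Of the 12 of these markers tested, 10 had negative and 2 positive differences (median -0.95). SERPINE2 went against most of the list, from 25.1 and 27.8 FPKM to 75.8, 50.1 and 45.0 FPKM, and holds up the later sums. The part of these markers here was not tested. The columns of the stages were probably made apart by the authors, so a stage difference may hold a part that comes from their making.

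Among the ATPases PSMC5 rose from 116 and 114 FPKM to 205, 186 and 184 FPKM (log2 change 0.73, SE 0.17, n = 2 and 3, limma adjusted p 0.00883), with all morulae far above both 8/16-cell libraries. PSMC4 rose from 41.3 and 36.4 FPKM to 84.1, 54.4 and 94.6 FPKM (0.95, SE 0.26, adjusted p 0.02), NC morula replicate 2 being the lowest of the 3. The other 4 ATPases had differences of 0.35 to 0.54 and did not pass, PSMC3 narrowly (adjusted p 0.0504). In the rest of the regulatory particle the lid subunit PSMD13 rose from 46.4 and 43.1 FPKM to 86.5, 68.1 and 84.0 FPKM (0.81, SE 0.19, adjusted p 0.0109). PSMD1, the larger scaffold subunit of the base, rose from 45.1 and 41.4 FPKM to 64.7, 62.4 and 59.0 FPKM (0.51, SE 0.16, adjusted p 0.0315). PSMD4 (-0.25), PSMD14 (0.50) and PSMD11 (0.16) did not pass (adjusted p 0.291, 0.0635 and 0.599).

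In the core particle PSMA3 rose from 92.8 and 72.1 FPKM to 135, 126 and 119 FPKM (0.62, SE 0.17, adjusted p 0.0192). PSMA4 rose from 43.3 and 39.2 FPKM to 70.9, 47.3 and 79.8 FPKM (0.63, SE 0.22, adjusted p 0.0496), just inside the threshold. No beta gene passed, and the catalytic PSMB5 (-0.37), PSMB6 (0.15) and PSMB7 (0.53) lay on different sides. Of the core chaperones, PSMG2 rose from 25.2 and 22.7 FPKM to 69.9, 32.6 and 67.1 FPKM (1.13, SE 0.34, adjusted p 0.0291), with NC morula replicate 2 well below the other two. PSMG4 fell from 131 and 116 FPKM to 60.8, 48.6 and 66.2 FPKM (-1.08, SE 0.30, adjusted p 0.0211). PSMG1 (-0.09) and PSMG3 (-0.07) did not pass. In each pair of chaperones 1 member passed, in opposite directions: PSMG2 was 0.391 and 0.489 times PSMG1 in NC 8/16-cell libraries and 0.647 to 1.64 times in NC morulae, and PSMG4 was 3.19 and 3.85 times PSMG3 and then 1.41 to 1.99 times.

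The chaperone PSMD9 fell from 180.2 and 129.5 FPKM to 85.6, 68.7 and 97.0 FPKM (-0.87, SE 0.21, adjusted p 0.0118), and PSMD10 (0.24) and PSMD5 (-0.20) did not pass, nor did the inhibitor PSMF1 (0.29). PSME3 rose from 25.3 and 18.3 FPKM to 49.8, 36.8 and 33.2 FPKM (0.84, SE 0.24, adjusted p 0.0239). PSME4 stayed between 12.2 and 15.9 FPKM in the 5 NC libraries (0.04, adjusted p 0.9). The calls varied with single libraries, and so did those over all genes. Without NC morula replicate 1, 3 were left (PSMC5, PSMD13 and PSMD9), and all genes called went from 3626 to 2529. Leaving out an NC 8/16-cell library leaves 1 in that group, so only the median difference of the members is given. It was 0.36 without replicate 1 (all genes -0.02) and 0.11 without replicate 2 (all genes -0.13). With an equal sum per library 4 rose and 2 fell (all genes 1157 and 1364), and with quantile normalization 15 and 2 (1857 and 1957).

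**Figure D3:**
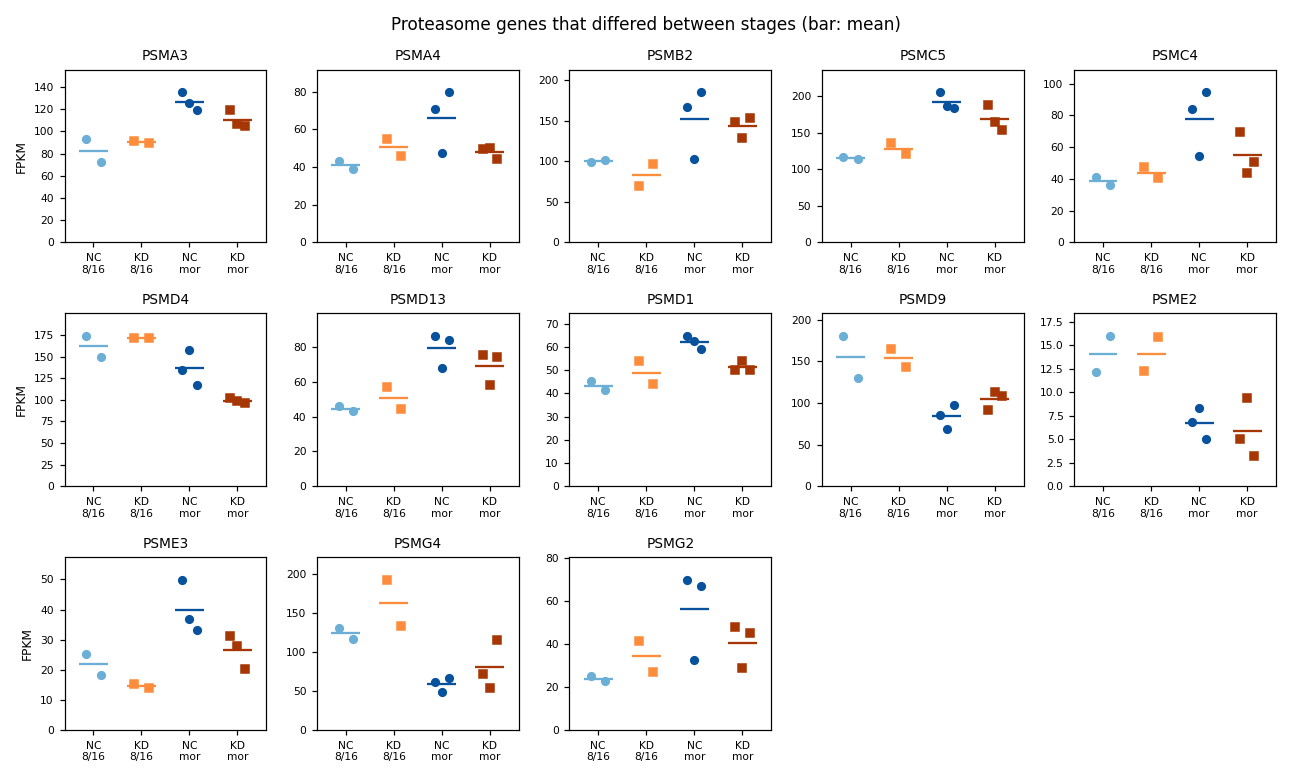
FPKM per library (points) and group mean (bar) of the 13 genes that passed between the stages in NC or KD embryos; each panel starts at 0. PSMC5, PSMD13 and PSME3 lie higher in morulae of both treatments, and PSMD9, PSMG4 and PSME2 lower.

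In KD embryos 2 members rose and 3 fell between the stages (limma), where 5.22% of all genes rose and 14.8% fell (20% in all). At an unadjusted p under 0.05 there were 14, beside 36.1% of all genes. The NC and KD stage comparisons share no library. PSME3 rose from 15.2 and 14.1 FPKM to 31.4, 27.8 and 20.2 FPKM (0.79, SE 0.24, n = 2 and 3, adjusted p 0.0426). PSMB2, a non-catalytic beta subunit, rose from 69.1 and 97.3 FPKM to 149, 129 and 154 FPKM (0.80, SE 0.26, adjusted p 0.0496). PSMD4 fell from 171 and 171 FPKM to 103, 98.9 and 95.9 FPKM (-0.78, SE 0.17, adjusted p 0.0137), all 3 morulae lying well below both 8/16-cell libraries. PSMG4 fell from 192 and 133 FPKM to 71.3, 53.1 and 115 FPKM (-1.06, SE 0.30, adjusted p 0.0322). PSME2, the beta subunit of PA28, fell from 12.2 and 15.9 FPKM to 4.99, 9.44 and 3.18 FPKM (-1.23, SE 0.35, adjusted p 0.0329).

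Among the members that did not pass in KD were PSMC5 (0.39, adjusted p 0.118), PSMD13 (0.44, 0.13) and PSMD9 (-0.56, 0.0822), all on the side of their NC difference. The calls shared by both treatments were PSME3 and PSMG4, 20% of the NC calls and 40% of the KD calls, beside 44.4% and 68.4% of the calls over all genes tested. As deposited 20 of 47 KD differences were positive (37.2% of all genes) and 27 negative (median -0.11, all genes -0.18), and with an equal sum per library 35 and 12 (median 0.37, all genes 0.23). Calls went from 2 higher and 3 lower to 7 and 0 with equal sums (all genes 614 and 1741 to 1144 and 258). They were 4 and 1 with each library centred on its median (all genes 1053 and 879) and 6 and 2 with quantile normalization (1121 and 1027). With the MIR2887 genes removed before the equal sums, 3 members were higher and 1 lower (all genes 695 and 637). Leaving out a KD 8/16-cell library leaves 1 in that group. The members' median was then -0.01 without replicate 1 (all genes -0.20) and -0.13 without replicate 2 (all genes -0.17). PSMD4 alone passed without KD morula replicate 1, with PSME2 without KD morula replicate 2, and with PSME3 and PSMG4 without KD morula replicate 3. In the fits without a KD morula library, all genes called went from 2355 to 1072, 1504 and 1883.

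PSMC6 and PSMD10 were the 2 of 47 members with stage differences of opposite sign in NC and KD, each without overlap. The share of all genes that meet this rule was not counted, so the number does not set proteasome genes apart. PSMC6 was at 46.5 and 35.7 FPKM in NC 8/16-cell and 48.9, 53.3 and 62.1 FPKM in NC morula libraries (0.41), against 60.7 and 45.5 FPKM and then 40.1, 35.9 and 38.4 FPKM in KD embryos (-0.45). PSMD10 was at 18.4 and 18.6 FPKM and then 22.4, 19.7 and 24.1 FPKM in NC embryos (0.24), against 19.1 and 16.7 FPKM and then 14.3, 15.7 and 12.8 FPKM in KD embryos (-0.31). The interaction did not pass for either (limma adjusted p 0.479 and 0.52). The median of the 17 regulatory genes over the median of the 14 core genes was 0.566 and 0.552 in NC 8/16-cell libraries and 0.633 and 0.553 in their KD counterparts, 0.651 to 0.756 in NC morulae and 0.588 to 0.625 in KD morulae. NC morulae were the highest on this ratio of medians, but not on the ratio of means, which ran from 0.665 to 0.916 in NC and from 0.667 to 0.789 in KD morulae.

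**Figure D4:**
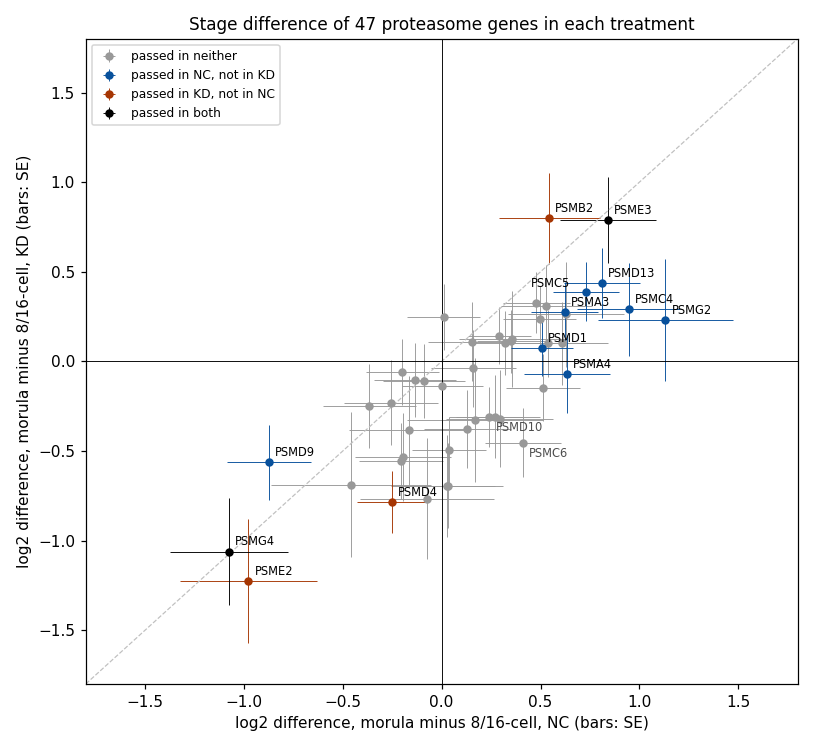
Log2 difference between morula and 8/16-cell libraries of the 47 genes tested in NC (horizontal) and in KD (vertical), on the log2(FPKM + 1) scale, with SE bars; the dashed line marks equal differences. PSME3 and PSMG4 passed in both treatments, and 39 of the 47 genes lie below the line, none of them past the interaction test.

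Immunoproteasome genes were a small part of the catalytic subunits. PSMB9, the alternative to PSMB6, had the highest level of the 3, at 21.1 and 13.0 FPKM in NC against 33.4 and 12.4 FPKM in KD 8/16-cell libraries, with 9.05, 9.94 and 18.0 FPKM in NC against 15.3, 9.92 and 12.2 FPKM in KD morulae. KD 8/16-cell replicate 1 was the highest library, and the groups overlapped at both stages. PSMB10, the alternative to PSMB7, ranged over 1.51 to 3.65 FPKM and PSMB8, the alternative to PSMB5, over 0.556 to 2.14 FPKM. The 3 genes made up 3.19% to 8.25% of the summed FPKM of the 6 catalytic genes: 4.81% and 5.90% in NC and 4.29% and 8.25% in KD 8/16-cell libraries, 3.19% to 5.05% in NC morulae and 3.52% to 4.48% in KD morulae. PSMB9 was 6.23% to 17.0% of the sum of PSMB9 and PSMB6, and PSMB8 0.397% to 1.71% of the sum of PSMB8 and PSMB5. No immunoproteasome catalytic gene passed in any comparison (limma; unadjusted p under 0.05 for 0 of 3 in each of the comparisons), and the intervals were wide, as for PSMB9 between KD and NC morulae (0.06, 95% interval -0.74 to 0.86).

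The PA28 subunits, which form a mixed ring of PSME1 and PSME2, were unequal. PSME1 was at 57.5 and 37.8 FPKM in NC against 91.0 and 37.8 FPKM in KD 8/16-cell libraries, and at 39.5 to 65.6 FPKM in NC and 42.4 to 53.0 FPKM in KD morulae. PSME2 was at 12.2 and 16.0 FPKM in NC 8/16-cell and 6.80, 8.34 and 5.03 FPKM in NC morula libraries, all 3 morulae below both (-0.98, SE 0.35, adjusted p 0.0538), a difference that did not pass. PSME1 exceeded PSME2 by 2.36 to 7.43 times in 8/16-cell libraries and by 4.49 to 16.7 times in morulae. In the RefSeq annotation PSME2 and PSME1 flank a single gene, EMC9, and PSMB8 and PSMB9 flank TAP1. Of 14 blood and immune markers, the sum was 128 to 155 FPKM in 8/16-cell libraries and 146 to 298 FPKM in morulae, most of it from HBA and CSF1R, and its part in the PA28 and immunoproteasome values was not tested.

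**Figure D5:**
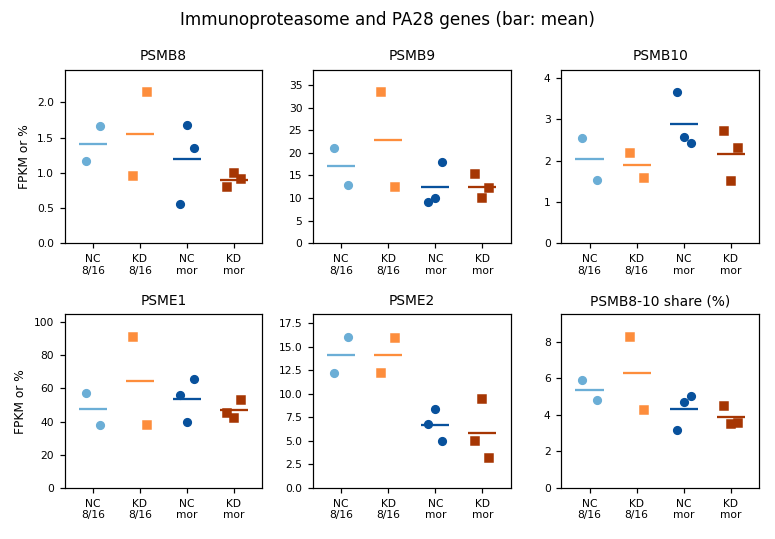
FPKM per library (points) and group mean (bar) of the immunoproteasome catalytic genes PSMB8, PSMB9 and PSMB10 and the PA28 genes PSME1 and PSME2, with the share of PSMB8 to PSMB10 in the summed FPKM of the 6 catalytic genes (percent); each panel starts at 0. PSME2 lies lower in morulae of both treatments, and the share stays under 9% in all 10 libraries.

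Of 11 tested genes of antigen processing and interferon signalling, 1 rose and 5 fell between the stages in NC, where 12.6% of all genes rose and 18.2% fell. ERAP1, which trims peptides for presentation, rose (log2 change 1.40, adjusted p 0.0022). IRF8, an interferon-regulated transcription factor, fell (-2.59, 0.000226), as did TAPBP (-1.21, 0.00835), B2M (-1.44, 0.0112), ISG15 (-3.33, 0.0125) and IRF1 (-1.03, 0.0299). In KD 1 fell, IRF8 (-1.73, 0.00249), where 14.8% of all genes fell. Between KD and NC morulae 0 of 11 passed in limma (5 at an unadjusted p under 0.05, beside 21.2% of all genes). With the replicate block 3 of 11 passed as higher in KD, where that fit called 3.89% of all genes higher. They were TAPBP at 1.12 (adjusted p 0.0617, blocked 0.00549), ISG15 at 3.26 (0.0624, blocked 0.00494) and IFI6 at 2.87 (0.159, blocked 0.0111). PSMB8, PSMB9 and PSMB10, at -0.17, 0.06 and -0.30, did not pass in morulae in either fit.

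Genes that work with the proteasome under other names were followed in 3 further lists. Of 12 proteasome genes without a PSM symbol, 2 fell between the stages in both treatments, 16.7% of the list, beside 18.2% of all genes in NC and 14.8% in KD, so the count does not set the list apart. AKIRIN2, which brings proteasomes into the nucleus, went from 129 and 109 FPKM to 55.8, 44.9 and 62.2 FPKM in NC (-1.13, adjusted p 0.00305) and changed by -0.73 in KD (0.03). PITHD1, a proteasome-binding protein, changed by -0.78 in NC (0.00975) and -0.70 in KD (0.0234). SEM1, the smallest lid subunit, was at -1.09 and -1.14 and did not pass (adjusted p 0.0534 and 0.0606). None of the 12 passed between KD and NC at either stage in limma (0 at the 8/16-cell stage and 4 in morulae at an unadjusted p under 0.05, beside 4.37% and 21.2% of all genes), where PAAF1, a chaperone of the regulatory particle, was at -0.54 in morulae (adjusted p 0.123).

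Of 12 shuttle, segregase and transcription factor genes, 3 rose and 1 fell between the NC stages, and 2 rose and 1 fell between the KD stages. These are 33.3% and 25% of the list, near the 30.8% and 20% of all genes called. The ubiquitin shuttles UBQLN2 (1.44 in NC, adjusted p 0.00218; 1.35 in KD, 0.00536) and UBQLN4 (1.10, 0.014; 1.01, 0.0294) rose in both treatments. The shuttle RAD23B rose in NC from 44.5 and 43.4 FPKM to 97.6, 90.5 and 59.3 FPKM (0.86, 0.0291). NGLY1, which removes glycans from the proteasome transcription factor NFE2L1, fell in both (-1.32, 0.0016; -1.31, 0.00325). NFE2L1 was at 0.56 in KD (adjusted p 0.0704) and did not pass. In morulae RAD23B stood at 97.6, 90.5 and 59.3 FPKM in NC against 44.2, 37.4 and 27.8 FPKM in KD, without overlap, and the difference of -1.15 did not pass (SE 0.23, adjusted p 0.056, blocked 0.0038). The blocked fit called 2 of the 12 lower in KD morulae, beside 8% of all genes, RAD23B and NFE2L2 (-0.70, blocked adjusted p 0.0266).

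Of 10 ubiquitin genes and activating or conjugating enzymes, the same 4 passed between the stages in both treatments, each in the same direction. That is 40% of the list, where 30.8% of all genes passed in NC, 20% in KD and 13.7% in both in the same direction; no test was made of this. The polyubiquitin gene UBB fell by 1.08 in NC and 1.15 in KD on the log2 scale (adjusted p 0.00666 and 0.00888), and the conjugating enzyme UBE2D3 fell by 0.76 and 0.82 (0.0164 and 0.0189). The activating enzyme UBA1 rose by 0.65 and 0.89 (0.0282 and 0.013) and the conjugating enzyme UBE2L3 by 0.83 and 0.72 (0.0156 and 0.0384). Between KD and NC morulae 0 of 10 passed in limma (1 at an unadjusted p under 0.05, beside 21.2% of all genes), UBE2N having the smallest p (-0.45, adjusted p 0.209).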

How the data were processed

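RNA was isolated with a Picopure kit, taken up on oligo(dT) beads and made into libraries with an NEBNext Ultra kit and PCR, per the labels' protocols. The submitters' processing notes name Cufflinks, featureCounts, HISAT2 and Trimmomatic, and as builds bosTau9 and ARS-UCD1.2; versions, steps and strand are not given in the sources used here. The authors deposited FPKM values in a table of 39911 lines. It carries no counts, so the read depth and counting error of each value are unknown, and reads shared with pseudogenes or antisense partners cannot be told apart. The 81 symbols on more than 1 line (11211 lines) were left out. For those symbols the loci are paired differently in the morula and 8/16-cell columns, so the columns of the stages were probably made apart. Symbols were matched to RefSeq (ARS-UCD2.0) for names and gene order, and all 49 matched.

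The limma package (version 3.58.1, R 4.3.3) fitted the 4 group means to log2(FPKM + 1) of all 10 libraries for the 11761 genes averaging 1 FPKM or more, with limma-trend variances (6 residual degrees of freedom). A gene passed when its p-value (two-sided), after Benjamini-Hochberg adjustment over all genes tested, was under 0.05. Log2 differences are on the log2(FPKM + 1) scale and understate changes of low genes. The script was tested on simulated data. Alternatives changed the pseudocount (0.1), the filter (none, or 5 FPKM), the scaling, the libraries fitted and the replicate block. Same-numbered KD and NC libraries deviated together in all 3 morula pairs (r = 0.370, 0.325 and 0.312), and the numbers were taken to pair them. At the 8/16-cell stage r was 0.0558, and between stages it was 0.0361 to 0.150, which gives little ground for pairing. The blocked fit of KD against NC still held the numbers of both stages, which left 3 residual degrees of freedom. Its p-values in morulae thus rest on a spread estimated with the 8/16-cell libraries paired too. The genes, classes and lists were chosen with earlier results of these data known. Named were the members that passed, the 3 largest differences in each direction, the catalytic, activator, inhibitor, chaperone and ubiquitin-binding members, the highest and lowest of each class and up to 4 genes of a list by smallest p; other genes named for groups without overlap or single libraries were chosen after their values were seen.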

Additional observations from a re-analysis of the deposited data

How the results depend on the processing

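The numbers of proteasome genes that passed between KD and NC at the 8/16-cell stage and for the interaction were 0 under every alternative run. In morulae the count was 5 with the replicate block and 0 otherwise. For the NC stages (10 genes) the count was 6 with equal sums and 6 with only the libraries compared. It was 17 with quantile normalization, 17 with the replicate block and 3 to 15 when 1 morula library was left out. In those leave-out fits 2529 to 3657 of all genes passed, beside 3626 in the main fit. For the KD stages (5 genes) it was 2 without a filter on low values (PSMD4 and the low gene PSMB11) and 3 with only the libraries compared. It was 8 with quantile normalization, 10 with the replicate block and 1 to 6 when 1 morula library was left out. In those leave-out fits 1072 to 2698 of all genes passed, beside 2355 in the main fit. The numbers were not taken to pair libraries across stages, so calls gained or lost with that block are not read as effect sizes. The block changed no other count. Where 1 library of a pair was left out, the remaining one was assumed to vary like the other groups. Of the 10 NC calls, PSMD9 passed in 18 of 19 alternatives and PSMC5 and PSMD13 in 17, against 6 for PSMA4; of the 5 KD calls, PSMD4 passed in 14 and PSME2 in 7, and no call changed sign. Leaving out a library that a comparison does not use, or changing the filter, could not change a sign. After seeing the data, the MIR2887 genes were removed and the libraries set to equal sums, which gave 25 positive and 22 negative differences between KD and NC at the 8/16-cell stage (median 0.03). FPKM without counts gives no limit of detection for the genes near 0, PSMA8, PSMB11 and PSMB8.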
